A study of Mus musculus with 6 samples.

Results

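The respiratory chain of the inner mitochondrial membrane and the ATP synthase that it drives were described here gene by gene in mouse embryonic stem cells with and without E-cadherin. Members were taken by symbol alone, with no measured value. They were the protein-coding genes whose symbols start with Nduf, Uqcr, Atp5, mt-Nd, mt-Co, mt-Cy or mt-At, those whose symbols run from Cox4 to Cox8 followed by a letter, and Sdha, Sdhb, Sdhc and Sdhd. This rule found 107 of the 55401 rows of the count table, 94 coded in the nucleus and 13 in the mitochondrial genome. By known role, 43 rows belonged to complex I, 4 to complex II, 9 to complex III, 22 to complex IV and 19 to complex V, and 10 were assembly or supercomplex factors. Symbols outside the rule, such as that of cytochrome c1 (Cyc1), were not members.

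The 3 WT libraries came from V6.5, an embryonic stem cell line, and the 3 knockout libraries from Cdh1-/- V6.5 cells, in which both copies of the E-cadherin gene were disrupted. Libraries are named A, B and C within a genotype. The labels name no treatment, time point or culture medium, and they do not say whether the libraries of a genotype came from separate cultures or the knockout from 1 clone. The p-values below therefore measure the spread between these libraries, and the loss of Cdh1 cannot be told apart from other differences between the cell stocks. Total counts lay between 18020719 and 23381942 per library. Cdh1 itself had a mean of 559 CPM (counts scaled to a common library size) in WT and of 173 in the knockout, a log2 fold change of -1.70 (adjusted p = 2.9e-08, edgeR's quasi-likelihood test with Benjamini-Hochberg adjustment over 17325 tested genes). All 8 embryonic stem cell markers were tested, with a summed level of 3801 to 4193 CPM in WT and 4254 to 5372 CPM in the knockout, and 1 was called higher. Of the 10 fibroblast markers, 5 were tested, with summed levels of 27.7 to 45.3 CPM in WT and 19.98 to 32.4 CPM in the knockout. Of these fibroblast genes 1 was called lower, Fap was at 0 in every library and Lum was at or under 6 counts.

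Complexes I and II pass electrons from NADH and from succinate to ubiquinone, complex III passes them on to cytochrome c, and complex IV passes them to oxygen. Complexes I, III and IV pump protons as they do so, and complex V uses the resulting gradient to make ATP. Each of these but complex II joins subunits coded in the nucleus with subunits coded in mitochondrial DNA. Embryonic stem cells are known to use both glycolysis and respiration.

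Few respiratory chain genes differed between the genotypes beyond the spread of the libraries. Of the 102 members with enough counts to test, 4 were called higher in the knockout and 1 lower at an adjusted p under 0.05 (edgeR, Benjamini-Hochberg adjustment over all tested genes). Over all 17325 tested genes, 7.60% were called higher and 5.71% lower. The called share of the members was thus 4.90%, against 13.3% of all tested genes called in either direction. Ndufb11 of complex I, Cox6b2 of complex IV, Uqcrc1 of complex III and the assembly factor Ndufaf3 rose, and Sdhc of complex II fell.

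The members' changes were small and lay more often above 0 than below it. The log2 fold change (knockout over WT) was above 0 for 67 of the 102 tested members, or 65.7%, against 48.9% of all tested genes. Its median was 0.06 over the members and -0.01 over all tested genes, and the median of its absolute size was 0.12 and 0.23, respectively. Relative to the WT mean, the median over tested nuclear-coded members was -0.05, -0.03 and 0.05 in WT libraries A, B and C. In knockout libraries A, B and C it was 0.06, 0.12 and 0.03, so the genotypes overlapped. The 95% interval of the log2 fold change lay within 1.5-fold in both directions for 90 of the 102 members, and for 7796 of the 17325 tested genes. The median standard error was 0.10 over the members and 0.16 over all tested genes, so the members' intervals were also narrower. At an unadjusted p under 0.05 there were 21 members, 18 higher and 3 lower, where 26.7% of all tested genes passed, 14.1% higher and 12.6% lower. Libraries of the 2 genotypes did not overlap for 26 members, 21 of them higher in the knockout, which is 25.5% of the members against 30.7% of all tested genes.

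**Figure D1:**
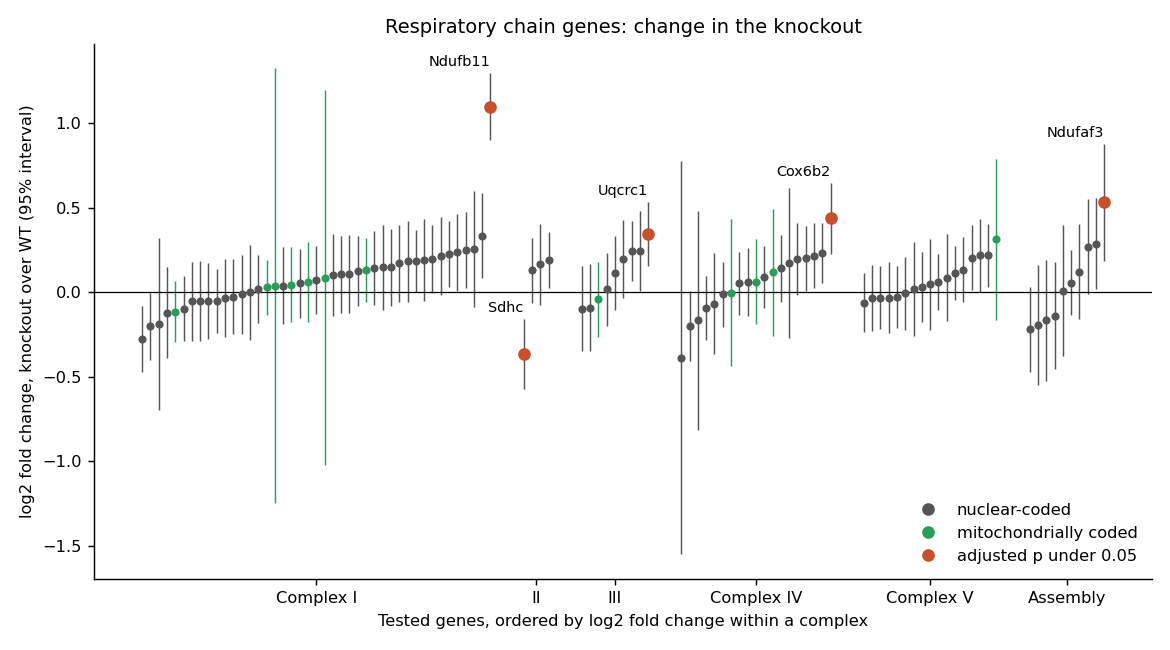
Log2 fold change of each of the 102 tested respiratory chain genes, knockout over WT, ordered within each complex, with 95% intervals as lines. Ndufb11 stands at 1.10, the other called genes lie between -0.36 and 0.53, and the widest intervals belong to genes with few counts.

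The 5 genes that were not tested were close to undetected. The second table row with the symbol Atp5o was at 0 in every library. The tissue-restricted complex IV isoforms Cox7b2, Cox8b and Cox8c had at most 6, 6 and 12 counts in a library. Counts of mt-Atp8 lay between 1 and 6.

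Complex I, the NADH dehydrogenase, had 43 members, and 1 of them was called, where 13.3% of all tested genes were. The median log2 fold change was 0.07 over the complex, 0.10 over its 36 nuclear-coded members, 0.05 over the 7 nuclear-coded core subunits and 0.11 over the 29 accessory subunits. The summed level of the nuclear-coded members was 2100, 2090 and 2342 CPM in WT libraries A, B and C and 2257, 2407 and 2339 CPM in the knockout libraries, so the genotypes overlapped. The core subunits Ndufv1, which binds NADH, and Ndufs1, which carries iron-sulfur clusters, had log2 fold changes of 0.13 and -0.10. Per kb of exon length, Ndufa7 had the highest level among the nuclear-coded members, 269 CPM per kb.

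The called gene was Ndufb11, which encodes an accessory subunit of the membrane arm. It lies on chromosome X from 20615326 to 20617619, on the minus strand (GRCm38). Its level was 72.5, 73.9 and 86.7 CPM in WT libraries A, B and C and 159, 174 and 166 CPM in knockout libraries A, B and C. Every knockout library thus lay above every WT library, with means of 77.7 ± 7.82 CPM and 166 ± 7.59 CPM (SD, n = 3). The knockout was higher by 1.10 on the log2 scale, with a standard error (SE) of 0.09 (adjusted p = 4.4e-06, edgeR). The opposite strand of 12.9% of its exon length is exon of Rbm10, an RNA-binding protein gene that starts next to it and runs the other way. For Rbm10 it was 0.27 (SE 0.11, adjusted p = 0.148, edgeR). The promoter of Ndufb11 is shown because this gene had the largest change of all members. It spans 250 bases before to 50 after the start in RefSeq on GRCm38.p6, at chrX:20617570-20617869 on the minus strand, and capitals mark matches to ATTGG, the CCAAT box on either strand, of which there were 4.
Ndufb11: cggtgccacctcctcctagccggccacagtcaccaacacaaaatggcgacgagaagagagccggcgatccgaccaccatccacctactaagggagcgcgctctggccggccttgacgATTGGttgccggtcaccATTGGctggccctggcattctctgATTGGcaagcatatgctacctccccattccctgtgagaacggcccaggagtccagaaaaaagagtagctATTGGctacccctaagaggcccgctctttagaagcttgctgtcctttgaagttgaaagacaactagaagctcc

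Most genes around Ndufb11 rose as well. Of the 20 other tested genes that start within 1 Mb of it, 15 were called higher and none lower in this edgeR fit, and all 20 log2 fold changes lay between 0.24 and 1.89, with a median of 0.93. Uba1, which encodes the ubiquitin-activating enzyme, went from 712 ± 39.9 CPM to 1463 ± 112 CPM (SD, n = 3), a log2 fold change of 1.04. The kinase gene Cdk16 and the deubiquitinase gene Usp11 had log2 fold changes of 1.06 and 1.14. Among the 77 nuclear-coded members with at least 10 tested genes within 1 Mb, the neighbours of every other member had medians between -0.35, at Ndufb3, and 0.21, at Sdhd. These neighbours, and the stretch described next, were chosen after the values of Ndufb11 were seen.

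On chromosome X the higher values lay toward 1 end. From 15 Mb before to 5 Mb after the start of Ndufb11, 65 of 100 tested genes were called higher and 3 lower, with a median log2 fold change of 0.86. On the rest of chromosome X, 23 of 484 tested genes were called higher and 43 lower, with a median of -0.05, where 15.1% of all tested chromosome X genes were called higher and 7.88% lower. Relative to the WT mean, the median of the stretch was 0.90, 0.83 and 0.83 on the log2 scale in knockout libraries A, B and C, and between -0.02 and 0.01 in the WT libraries. With the median of the stretch taken off each library, an alternative added after seeing the data, the log2 fold change of Ndufb11 was 0.17 (adjusted p = 0.281, edgeR) and was not called. The other members on chromosome X, Ndufa1 and Cox7b, lie outside this stretch and had log2 fold changes of 0.00 and 0.20. The number of gene copies in these cells was not tested.

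**Figure D2:**
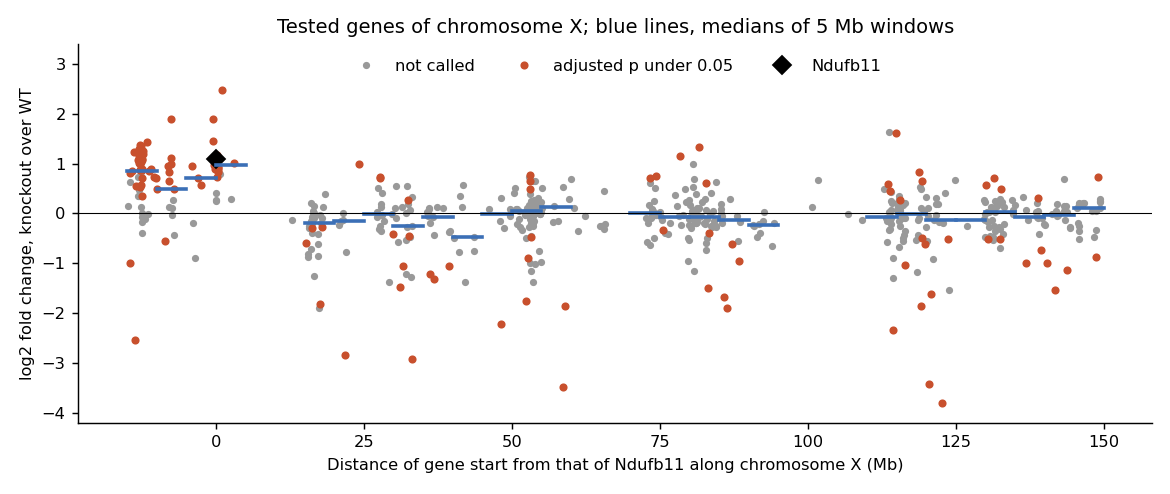
Log2 fold change, knockout over WT, of each tested gene on chromosome X against the distance of its start from that of Ndufb11 in Mb, with called genes in red and medians of 5 Mb windows as blue lines. Genes from 15 Mb before to 5 Mb after Ndufb11 have a median of 0.86 and those of the rest of the chromosome a median of -0.05.

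Among the other complex I members, the accessory subunit Ndufa10 had the lowest log2 fold change, -0.27 (SE 0.09, adjusted p = 0.0612, edgeR). Its level was 120, 119 and 142 CPM in WT and 103, 105 and 107 CPM in the knockout, with no overlap. Ndufa5, an accessory subunit of the matrix arm, had 19.9, 19.8 and 19.01 CPM in WT and 23.1, 25.4 and 25.5 CPM in knockout libraries (log2 fold change 0.34, SE 0.12, adjusted p = 0.0783, edgeR). Neither passed the threshold, although the libraries of the genotypes were separate for both, as they were for 30.7% of all tested genes.

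Complex II, succinate dehydrogenase, has 4 subunits, all coded in the nucleus, and Sdhc moved apart from the others. Sdhc encodes a membrane anchor that holds heme with Sdhd, and lies on chromosome 1 from 171127165 to 171150603 on the minus strand. Its level was 106, 115 and 110 CPM in WT and 95.01, 86.6 and 75.2 CPM in the knockout, so the knockout libraries were all lower. The log2 fold change was -0.36 (SE 0.10, adjusted p = 0.0222, edgeR). The other anchor, Sdhd, and the catalytic subunits Sdha and Sdhb had log2 fold changes of 0.17, 0.19 and 0.13, and none of them was called. Sdha, the flavoprotein that oxidizes succinate, had the highest level per length of the complex, 107 CPM per kb. Its libraries had 280, 298 and 291 CPM in WT and 333, 336 and 323 CPM in the knockout, without overlap (adjusted p = 0.128, edgeR).

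The call of Sdhc was lost under several alternatives, and genes of its chromosome moved in the same direction. Members on chromosome 1 numbered 6, and the log2 fold change was below 0 in each, among them -0.36 for Sdhc, -0.27 for Ndufa10, -0.20 for Cox5b, -0.10 for Ndufs1 and -0.05 for Ndufb3. Their median was -0.15, and that of all 1002 tested genes of chromosome 1 was -0.33, with 27.8% called lower and 1.80% higher. The chromosome's median relative to other autosomes was -0.33, -0.33 and -0.29 in knockout libraries A, B and C. With each library's medians of chromosomes 1 and 14 taken off, the log2 fold change of Sdhc was -0.05 (adjusted p = 0.823, edgeR). The part of the chromosome-wide shift in the change of Sdhc was not tested. When 1 library at a time was left out, Sdhc lost its call in 5 of 6 fits, those without WT A, B or C and without knockout B or C, with an adjusted p of up to 0.130 (edgeR). Among the 81 tested nuclear-coded members on neither chromosome 1 nor X, 3 were called higher and none lower (1 lower at an unadjusted p under 0.05), and the median log2 fold change was 0.10. No member lies on chromosome 14.

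**Figure D3:**
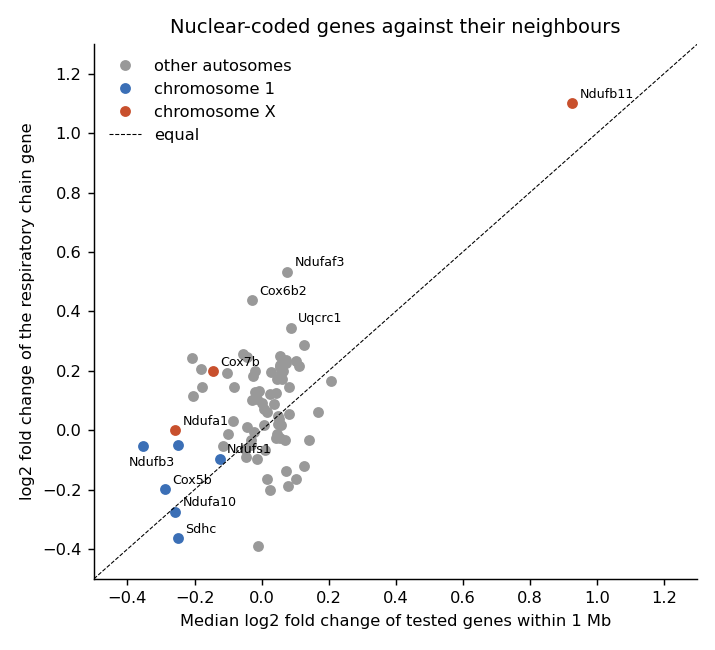
Log2 fold change of each nuclear-coded respiratory chain gene with at least 10 tested neighbours (77 genes) against the median over its tested neighbours. Neighbours are genes that lie at least partly within 1 Mb of the gene. Ndufb11 lies at 1.10 against a neighbour median of 0.93, and the 6 chromosome 1 members lie below 0 on both axes. Cox6b2, Uqcrc1 and Ndufaf3 lie above neighbours whose medians are near 0. Uqcrc1 and Ndufaf3 are within 1 Mb of each other.

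Complex III had 9 members, of which 1 was called, against 13.3% of all tested genes. At an unadjusted p under 0.05, 3 were higher, all nuclear-coded, where 14.1% of all tested genes were. The summed level of its 8 nuclear-coded members was 719, 726 and 760 CPM in WT and 829, 892 and 793 CPM in the knockout. All 3 knockout sums lay above the WT sums, at a ratio of means of 1.14, the highest among the complexes. The mean sum went from 735 to 838 CPM. Uqcrc1 alone went from 217 to 276 CPM, so 1 called gene made up much of this difference. Uqcrc1, a core protein of the matrix side, was the called member and had the highest level per length of the nuclear-coded ones, 149 CPM per kb. Its level was 214, 212 and 225 CPM in WT and 273, 306 and 250 CPM in the knockout. The knockout libraries were all higher and spread more widely, 276 ± 27.9 CPM against 217 ± 7.04 CPM (SD, n = 3). The log2 fold change was 0.34 (SE 0.09, adjusted p = 0.0189, edgeR). The call was lost without WT A, without WT B and without knockout B, with an adjusted p of 0.0864, 0.0866 and 0.0883, respectively (edgeR).

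Uqcrc2, the partner core protein, had 126, 136 and 135 CPM in WT and 162, 159 and 148 CPM in knockout libraries (log2 fold change 0.24, adjusted p = 0.0694, edgeR). Exons of Pdzd9 lie on the opposite strand of 26.6% of its exon length. The Rieske iron-sulfur subunit Uqcrfs1 had a log2 fold change of 0.12, and cytochrome b, coded by mt-Cytb, had -0.04. Uqcr11, a small subunit, was lowest at -0.10. The promoter of Uqcrc1 is shown for its matches to GCATGCG, the core of the NRF1 site, in capitals. The letters match on both strands and the matches overlap. NRF1 is a transcription factor known for driving many respiratory chain genes. The RefSeq promoter lies at chr9:108936398-108936697 on the plus strand.
Uqcrc1: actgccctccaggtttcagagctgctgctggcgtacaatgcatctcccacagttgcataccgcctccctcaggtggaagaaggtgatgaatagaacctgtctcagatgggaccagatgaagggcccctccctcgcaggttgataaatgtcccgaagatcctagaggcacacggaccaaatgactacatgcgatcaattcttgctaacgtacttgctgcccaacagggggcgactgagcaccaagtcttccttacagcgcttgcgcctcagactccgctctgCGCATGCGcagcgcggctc

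Motif matches in member promoters were counted as a description of the family. RefSeq promoters of 300 bases were found for 74 members, 79 promoters in all, and both strands were searched. The NRF1 core GCATGCG was present in 13 of them (16.5%), against 3.58% of the 32851 promoters in the table. The ETS letters CCGGAAG, bound by the GABP factor among others, were in 18 (22.8%) against 8.86%. The YY1 letters AAGATGG were in 11 (13.9%) against 6.34%, and the CCAAT letters ATTGG in 34 (43.0%) against 37.4%. Uqcrc1 was the called gene among the 13 members with an NRF1 core, and the others, such as Atp5g2, Cox6a1 and Ndufaf4, were not called. Ndufaf3, with Ndufb11 and Cox6b2, was among the 33 members with a CCAAT match, and the others of these were not called.

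Complex IV, cytochrome c oxidase, had 19 tested members and 1 called, the isoform Cox6b2, where 13.3% of all tested genes were called. Cox6b2 is best known from testis and takes the place of the widely expressed Cox6b1. It lies on chromosome 7 from 4751792 to 4753094 on the minus strand. Its level was 37.8, 35.3 and 34.7 CPM in WT and 48.0, 49.1 and 48.6 CPM in the knockout. The knockout libraries lay close together and all above WT, with a log2 fold change of 0.44 (SE 0.10, adjusted p = 0.00766, edgeR). Cox6b2 stayed called under all 19 alternatives, with an adjusted p of at most 0.0362 (edgeR without 1 library). Cox6b1 had 79.4, 90.0 and 89.5 CPM in WT and 103, 95.6 and 98.4 CPM in the knockout, a log2 fold change of 0.20 that was not called (adjusted p = 0.164, edgeR). On the level per kb, Cox6b2 made up 25.8% ± 2.25 of the pair in WT and 29.0% ± 1.06 in the knockout (SD, n = 3), with overlapping libraries: WT A was at 28.4% and knockout A at 27.9%. The 5 male germ cell markers had summed levels of 83.1 to 88.9 CPM in WT and 71.8 to 83.6 CPM in the knockout, with 3 tested and none called by edgeR, and Acrv1 and Prm1 were at or under 6 counts. Its promoter, at chr7:4753045-4753344 on the minus strand, is shown because this was the most stable call, and holds 3 CCAAT box matches in capitals.
Cox6b2: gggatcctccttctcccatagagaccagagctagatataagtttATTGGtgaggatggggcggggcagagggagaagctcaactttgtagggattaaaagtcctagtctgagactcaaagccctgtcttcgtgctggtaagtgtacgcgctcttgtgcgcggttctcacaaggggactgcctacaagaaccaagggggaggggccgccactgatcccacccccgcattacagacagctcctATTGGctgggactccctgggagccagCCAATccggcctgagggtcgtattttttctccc

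For other complex IV isoforms, the shares of the genotypes differed by less than the SD of WT. Cox7a1, known from heart and muscle, made up 22.6% ± 1.25 of its pair with Cox7a2 in WT and 22.96% ± 1.37 in the knockout (SD, n = 3, level per kb). Cox4i2, known for oxygen-dependent expression, made up 0.81% ± 0.33 of its pair with Cox4i1 in WT and 0.72% ± 0.05 in the knockout. Cox6a2, the muscle isoform, made up 0.66% ± 0.27 and 0.48% ± 0.33 of its pair with Cox6a1. It had the lowest log2 fold change of the complex, -0.39, with an SE of 0.54 at mean levels of 1.24 CPM (WT) and 0.96 CPM (knockout). Of the 6 muscle and heart markers, 3 were tested, with summed levels of 7.85 to 16.9 CPM in WT and 9.94 to 15.8 CPM in the knockout.

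Ndufa4l2, a hypoxia-induced paralog of the complex IV subunit Ndufa4, varied between libraries. It had 39.4, 45.3 and 33.6 CPM in WT and 64.9, 37.6 and 31.1 CPM in the knockout. Knockout A was the highest and knockout C the lowest, and the log2 fold change was 0.17 (SE 0.21, adjusted p = 0.657, edgeR). Cox4i1, the regulatory subunit with the highest nuclear-coded level per length of complex IV, 554 CPM per kb, had a log2 fold change of -0.01. The remaining named isoforms Cox6a1, Cox6c, Cox7a2, Cox7b and Cox8a had log2 fold changes of 0.09, 0.06, -0.09, 0.20 and 0.23, and none was called.

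**Figure D4:**
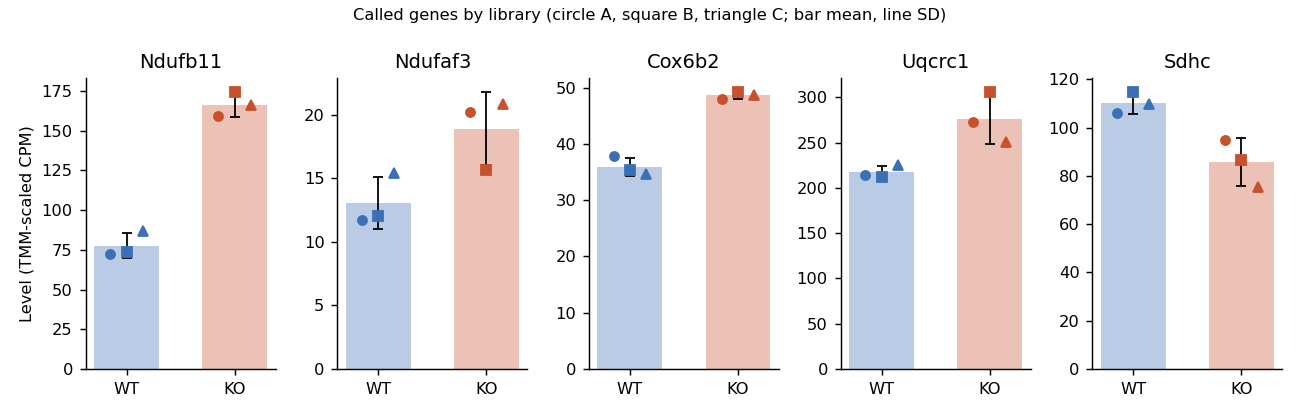
Level in CPM of the 5 called genes in each library, with circles for library A, squares for B, triangles for C, bars at the mean and lines at 1 SD (n = 3). Ndufb11 goes from a mean of 77.7 to 166 CPM, and for every gene the knockout libraries lie on 1 side of the WT libraries.

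Complex V, the ATP synthase, had 17 tested members and none was called by edgeR, against 13.3% of all tested genes. At an unadjusted p under 0.05, 3 were higher, where 14.1% of all tested genes were. The summed level of its nuclear-coded members was 4381, 4464 and 4767 CPM in WT and 4680, 4914 and 4678 CPM in the knockout. The genotypes overlapped, at a ratio of means of 1.05. Atp5b, the catalytic beta subunit, had the highest level per length of all nuclear-coded members, 1004 CPM per kb. It had 1801, 1838 and 2008 CPM in WT and 1938, 2014 and 1945 CPM in the knockout, with a log2 fold change of 0.06. Atp5f1, a stalk subunit, was lowest at -0.06 (SE 0.08). The nuclear-coded members' log2 fold changes spanned -0.06 to 0.22, the narrowest range of complexes I, III, IV and V.

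The membrane ring of the synthase is built from subunit c, which Atp5g1, Atp5g2 and Atp5g3 encode as the same mature protein. On the level per kb, Atp5g3 made up 52.1% ± 1.70 of the 3 genes in WT and 56.0% ± 3.13 in the knockout (SD, n = 3). Atp5g2 made up 44.2% ± 1.68 and 40.5% ± 3.08, and Atp5g1 3.71% ± 0.28 and 3.53% ± 0.13. The shares of Atp5g3 and Atp5g2 overlapped between genotypes. The log2 fold change of Atp5g3 was 0.21 (adjusted p = 0.155, edgeR), and those of Atp5g2 and Atp5g1 were -0.03 and 0.03.

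Assembly and supercomplex factors had 1 call among 10. Ndufaf3, which helps to build complex I and is known to act with Ndufaf4, had 11.7, 12.0 and 15.5 CPM in WT and 20.2, 15.6 and 20.9 CPM in the knockout. WT C and knockout B were nearly equal, and the other knockout libraries were higher. The log2 fold change was 0.53 (SE 0.16, adjusted p = 0.0417, edgeR). The call was lost without WT A, without WT B, without knockout A and without knockout C, with an adjusted p of up to 0.175 (edgeR). Ndufaf3 lies on chromosome 9 from 108565537 to 108567434, within 1 Mb of Uqcrc1, so each is among the other's neighbours. For Ndufaf3, 71 tested genes lie within 1 Mb, with 11 called higher and 2 lower (18.3%). For Uqcrc1, 56 do, with 10 called higher and 0 lower (17.9%). Over all tested genes 13.3% were called, 7.60% higher and 5.71% lower. Ndufaf4 had a log2 fold change of -0.22 (SE 0.12, adjusted p = 0.255, edgeR) and was not called, so its direction is not settled. Cox7a2l, a factor of respiratory supercomplexes, had 0.06, and Atp5s, named factor B, had 0.01.

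The 13 genes of the mitochondrial genome had no called member and none at an unadjusted p under 0.05 in the edgeR fit among 12 tested. Over all tested genes, 13.3% were called and 26.7% had an unadjusted p under 0.05 in that fit. The summed level of the 13 genes was 8910, 9828 and 11130 CPM in WT libraries A, B and C. In knockout libraries A, B and C it was 9542, 9490 and 11631 CPM. The 2 genotypes overlapped, with library C highest in both, and the means were 9956 ± 1115 and 10221 ± 1222 CPM (SD, n = 3). The nuclear-coded members summed to 9767, 9955 and 10608 CPM in WT and 10561, 11081 and 10533 CPM in the knockout, a ratio of means of 1.06 against 1.03 for the mitochondrial genes. About as much of the mitochondrial sum came from mt-Co1 as from the other 12 genes, with WT means of 5085 and 4871 CPM, respectively. For these 12 genes without mt-Co1, the ratio of means was 1.007. Mitochondrial genes took 0.916% to 1.14% of all counts and nuclear-coded members 1.003% to 1.08%. The mitochondrial sums and shares hold counted reads only. Reads of genes with near-identical copies, described below, may be missing from them, so they do not measure total mitochondrial RNA. Whether fewer mitochondria or less RNA per mitochondrion lie behind a level cannot be told apart in bulk RNA.

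Levels per kb of the mitochondrial genes fell into a high and a low range. The catalytic complex IV subunit mt-Co1 had 3365 CPM per kb over all libraries, cytochrome b (mt-Cytb) 1211 and mt-Nd1 981. The complex I genes mt-Nd5, mt-Nd6, mt-Nd2 and mt-Nd4 had 657, 608, 499 and 366 CPM per kb. Far below them, mt-Co2, mt-Co3 and mt-Atp6 had 14.8, 12.1 and 10.4 CPM per kb, and mt-Nd3, mt-Nd4l and mt-Atp8 had 1.69, 1.55 and 0.94.

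Of the 6 genes of the low range, 5 have near-identical annotated copies on chromosome 1. Annotated pseudogenes between 24611535 and 24616197 (GRCm38) matched mitochondrial transcripts at 98% identity or more over at least 100 bases. Such copies covered 99.9% of mt-Co3, 99.6% of mt-Co2 and mt-Atp6, 99.1% of mt-Nd3 and 98.99% of mt-Nd4l. They covered 63.6% of mt-Nd4, 31.3% of mt-Co1 and none of mt-Nd1, mt-Nd2, mt-Nd5, mt-Nd6 and mt-Cytb. Among annotated pseudogenes no copy of mt-Atp8 was found. The sequence between the copies of mt-Atp6 and mt-Co2, from 24614651 to 24614885, holds none of the annotated copies and was not searched. Of mt-Atp8, 21.1% of the exon length is shared with mt-Atp6. Values of these genes are uncertain, since reads that match 2 places may be dropped or split, and the setting for such reads is not given in the sources used here. The part of the copies in the low levels was not tested. The same limit holds for 13 nuclear-coded members with a pseudogene copy at this identity, which covered up to 75.7% of the transcript, at Ndufs3. Among them are Atp5h with 71.1%, Uqcrb with 62.8% and Atp5l with 57.4%. None of the 13 was called by edgeR, against 13.3% of all tested genes. Uqcrb and Ndufb4 were higher at an unadjusted p under 0.05, as were 14.1% of all tested genes.

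The row of mt-Nd3 and that of its copy Gm28438 showed how near such pairs are. The aligned 345 bases differed at 1 position, T3C, counted from 1 at the 5′ end of mt-Nd3, with the mitochondrial base first. The first 23 bases are shown with that base in capitals, since it is the only letter in the aligned part that tells the 2 rows apart.
mt-Nd3: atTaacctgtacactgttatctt
Gm28438: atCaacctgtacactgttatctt
The row of mt-Nd3 held 10, 12 and 13 counts in WT and 16, 10 and 10 in the knockout. The row of Gm28438 held 360, 446 and 288 counts in WT and 312, 474 and 298 in the knockout, more than mt-Nd3 in every library.

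**Figure D5:**
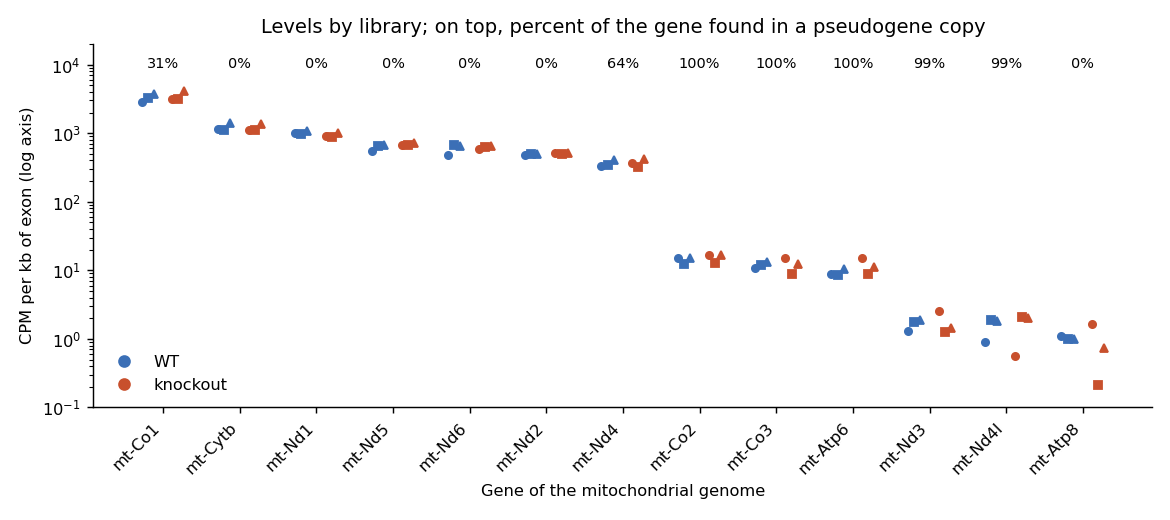
Level of the 13 mitochondrially coded genes in CPM per kb of exon in each library (log axis; circles A, squares B, triangles C), with the percent of each gene found in an annotated near-identical pseudogene printed on top. WT and knockout libraries overlap for every gene, and the 5 genes with about 99% or more in copies lie in the low range together with mt-Atp8.

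Within the tested mitochondrial genes, log2 fold changes ran from -0.11 at mt-Nd1 (SE 0.08) to 0.31 at mt-Atp6 (SE 0.22). The others were 0.03 for mt-Nd2, 0.04 for mt-Nd4, 0.13 for mt-Nd5, 0.06 for mt-Nd6, -0.04 for mt-Cytb, 0.06 for mt-Co1, 0.12 for mt-Co2 and 0.00 for mt-Co3. Those of mt-Nd3 and mt-Nd4l, 0.09 and 0.04, had SEs of 0.52 and 0.60, too wide to show a difference at this depth. Libraries of the genotypes overlapped for all 13 genes, while 30.7% of all tested genes had no overlap. For mt-Co1, the interval of the log2 fold change ran from -0.19 to 0.31.

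Genes that build, supply or regulate the chain were read from the same fit, in which 7.60% of all tested genes were called higher and 5.71% lower. Of 40 tested assembly factors outside the naming rule, none was called higher and 1 lower, with a median log2 fold change of 0.00. The called gene was Cox20, which helps to mature the mitochondrially coded Co2 subunit and lies on chromosome 1 (log2 fold change -0.52). Of 13 genes for cytochrome c and ubiquinone synthesis, 2 were lower, Coq8a on chromosome 1 (-0.69) and Cyct, the testis form of cytochrome c (-0.66). Cyct fell while Cox6b2, also best known from testis, rose.

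Among 25 tested genes that copy, transcribe or process mitochondrial DNA and RNA, Tfb1m, which methylates mitochondrial ribosomal RNA, was lower (-0.52), and the median was -0.02. Among 8 tested nuclear regulators of the chain, Gabpb2, a subunit of the GABP factor, was lower (-0.46). Of 14 tricarboxylic acid cycle genes, Sucla2 on chromosome 14 (0.81) and Idh3b (0.35) were higher, with a median of 0.11. None of 6 hypoxia-linked genes was called by edgeR, and 2 were higher at an unadjusted p under 0.05, against 14.1% of all tested genes.

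Of 77 tested mitochondrial ribosome proteins, 3 were higher, namely Mrps16, Mrpl57 and Mrpl52 (0.74, 0.65 and 0.62), and 2 were lower, Mrpl15 and Mrps9 (-0.49 and -0.33). The higher ones lie on chromosome 14 and the lower ones on chromosome 1. Relative to other autosomes, the median of chromosome 14 was 0.55, 0.54 and 0.54 in knockout libraries A, B and C on the log2 scale.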

How the data were processed

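Total RNA was isolated with TRIzol and made into libraries with a directional kit, per the labels' protocols. The deposited data are raw, unnormalized counts per gene, in 1 table by the authors that holds all 6 libraries. Per the submitters' processing notes, the tools were cutadapt 2.10, STAR 2.7.5b and featureCounts 2.0.1 with the build GRCm38, and settings for strand, read pairs and reads matching several places are not given in the sources used here. Member rows matched GENCODE M21 exactly in all 107 cases. Among counts from 1 to 10, 78.1% to 83.1% were even, against 50.2% to 52.1% of counts over 1000, so the floor was set at 6 counts. It covers counting error only.

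Counts were fitted with edgeR 4.0.16 (R 4.3.3), using filterByExpr defaults (count 10, total 15), TMM scaling and a quasi-likelihood model with genotype as its only term. The common biological coefficient of variation was 0.137. P-values were adjusted over all 17325 tested genes, and the threshold for a call was 0.05. SEs were derived from the F statistic. CPM are TMM-scaled, and levels between genes were compared per kb of exon. The procedure was also run on simulated data, with an outcome not reported here. The planted changes were larger than that of any member but Ndufb11, so the run does not bear on smaller changes. Groups were taken from the labels. Alternatives used other scaling, filters, limma 3.58.1 voom, DESeq2 1.42.0, a replicate block, halved counts, removed chromosome medians and fits without each library.

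Named were all called members, the highest level and the extreme log2 fold changes in each complex, all genes of the mitochondrial genome, fixed isoform families, members on chromosomes 1 and 14, and up to 5 called genes of each other list. Other names were chosen after their values were seen. The values of 1 member that this rule names are not reported here. Members and lists were chosen with earlier results of these data known. Promoters came from RefSeq (GRCm38.p6), and pseudogene copies from alignment of GENCODE M21 transcripts.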

Additional observations from a re-analysis of the deposited data

How the results depend on the processing

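The number of members called higher stayed within 1.5 times the value of 4 in every alternative except an adjusted p under 0.01, which left 2, and some of the fits without one library, which gave 2 to 5 (2 without WT A and 2 without WT B). The number called lower was 1 and became 2, with Ndufa10 added, under upper-quartile scaling, library totals only, a filter at a smallest count of 50 and counts divided by 2. It became 0 once medians of chromosomes 1 and 14 were removed and at an adjusted p under 0.01, and was 0 to 1 when leaving out one library (0 without WT A, WT B, WT C, knockout B or knockout C). Under upper-quartile scaling and library totals, where 3 were higher and 2 lower, Ndufaf3 was not called (adjusted p = 0.0593 and 0.0572, edgeR). Ndufaf3 also lost its call with limma-voom and with the chromosome medians removed (adjusted p = 0.0513 in both). The medians of log2 fold changes were 0.08 for nuclear-coded and 0.05 for mitochondrially coded members. Under every alternative they moved by less than 1 SD of the 3 knockout library medians (0.05 and 0.14, respectively). Signs of uncalled named genes changed in 43 of 793 values.

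With the replicate letter as a replicate block, 4 members were called higher and 2 lower, Ndufa10 being added at an adjusted p of 0.0498 (edgeR). Whether the letters pair the libraries was not settled. Deviations from the group means correlated at 0.15, -0.02 and 0.23 for A, B and C. Knockout A and knockout C correlated best with the WT library of their own letter, and knockout B with WT C (0.05). With 3 libraries per genotype these correlations cannot exclude pairing. Low counts limit mt-Nd3, mt-Nd4l, mt-Atp8 and Cox6a2, and shared sequence limits the mitochondrial genes with chromosome 1 copies and the 13 nuclear-coded members with pseudogene copies.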
